A study of Mus musculus with 8 samples.

Results

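The genes described here encode secreted and membrane-bound enzymes that cut extracellular matrix, with their tissue inhibitors: Mmp2, Mmp3, Mmp9, Mmp10, Mmp13, Mmp14, Timp1, Timp2, Timp3 and Adamts1. They were chosen by name, with earlier results of these data known. Every probe whose platform annotation gives 1 of these symbols was taken. This gave 17 probes for 10 genes out of 25669 probes for 16582 genes. Signals came from primary vascular smooth muscle cells (VSMC), cultured muscle cells of the vessel wall, of male C57Bl6/J mice aged 8 weeks. All cells carried a lentivirus and went through 2 days of puromycin selection, and RNA was taken after 5 days. The virus expressed short hairpin RNA against Uhrf1 (shUHRF1) in 2 RNA samples and a scrambled hairpin (shSCR) in the other 2, and each RNA sample was read on 2 bead arrays, called its first and second array. The labels name neither the hairpin of each shUHRF1 sample nor the culture or animal behind an RNA sample, so the p-values reflect the spread between RNA samples alone, and that spread may be technical. The comparison asks which of these genes differ in transcript level between cells given shUHRF1 and cells given shSCR.

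Matrix metalloproteinases are zinc-dependent enzymes, made as inactive precursors, that cleave collagens, gelatins, proteoglycans and other matrix proteins. Timps bind their active sites, and the balance of enzyme and inhibitor sets how fast matrix is turned over. In the vessel wall these enzymes take part in smooth muscle migration, in the growth of the neointima after injury and in the loss of elastic tissue in aneurysm. Uhrf1, the target of the hairpin, brings the maintenance DNA methyltransferase to newly copied DNA.

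The start regions of the genes are shown first, since Uhrf1 acts through methylation of CG pairs and since the inducible metalloproteinases carry AP-1 elements near their starts. RefSeq promoters of assembly GRCm38.p6, from 250 bases before to 50 bases after the annotated start, were at hand for 8 of the 10 genes, the exceptions being Mmp2 and Mmp9. The AP-1 motif TGANTCA was searched on both strands. It was found in Mmp3, Mmp10 and Mmp13, whose promoters lie on chromosome 9, and not in the windows of Mmp14, Timp1, Timp2, Timp3 or Adamts1. Of all 32851 promoters of this length, 7.8% held at least 1 match. The 3 sequences with a match are given 5′ to 3′ on the plus strand, with the AP-1 letters in capitals, at chr9:7272264-7272563 for Mmp13, chr9:7445572-7445871 for Mmp3 and chr9:7502092-7502391 for Mmp10.
Mmp13: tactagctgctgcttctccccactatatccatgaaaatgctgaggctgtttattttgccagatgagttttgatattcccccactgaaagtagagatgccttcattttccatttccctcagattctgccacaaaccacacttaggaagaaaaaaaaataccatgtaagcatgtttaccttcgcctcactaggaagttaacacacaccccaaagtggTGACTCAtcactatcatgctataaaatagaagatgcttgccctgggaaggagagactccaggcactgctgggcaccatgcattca
Mmp3: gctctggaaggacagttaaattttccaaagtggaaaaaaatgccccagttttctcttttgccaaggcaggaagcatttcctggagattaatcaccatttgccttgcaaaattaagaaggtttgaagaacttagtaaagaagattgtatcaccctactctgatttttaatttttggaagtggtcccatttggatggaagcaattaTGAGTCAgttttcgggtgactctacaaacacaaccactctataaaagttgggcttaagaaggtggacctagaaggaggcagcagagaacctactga
Mmp10: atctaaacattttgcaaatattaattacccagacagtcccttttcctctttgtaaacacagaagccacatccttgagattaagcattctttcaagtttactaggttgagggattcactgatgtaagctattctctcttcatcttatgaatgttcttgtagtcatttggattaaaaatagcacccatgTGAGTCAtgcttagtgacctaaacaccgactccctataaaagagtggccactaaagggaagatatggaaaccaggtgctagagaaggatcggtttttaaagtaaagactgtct
The match began at base -35 from the annotated start in Mmp13, at base -46 in Mmp3 and at base -63 in Mmp10. A TATA box, TATAAA, was also found in these promoters and in that of Adamts1, against 13.6% of all promoters. A motif match is a description of the letters and shows no bound factor.

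CG pairs were few in the promoters with an AP-1 match and many in those of Timp2 and Timp3. Mmp3 and Mmp13 had 1 CG each and Mmp10 had 2. Timp1 had 8, Mmp14 had 10, Adamts1 had 18, Timp3 had 24 and Timp2 had 25. The median over all promoters was 7, with quartiles at 3 and 20. The Timp3 promoter, chr10:86300162-86300461 on the plus strand of GRCm38.p6, is printed with every CG in capitals as the contrast to the CG-poor sequences above.
Timp3: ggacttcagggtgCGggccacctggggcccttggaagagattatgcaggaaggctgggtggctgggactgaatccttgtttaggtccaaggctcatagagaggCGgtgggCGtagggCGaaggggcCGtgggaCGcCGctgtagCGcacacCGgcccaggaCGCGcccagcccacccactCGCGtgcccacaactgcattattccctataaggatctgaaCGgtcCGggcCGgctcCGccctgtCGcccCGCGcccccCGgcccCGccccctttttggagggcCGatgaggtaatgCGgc
The arrays measured no methylation, so these counts describe sequence alone.

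Before the values of the genes, the arrays themselves need a description. Signals below are background-corrected, quantile-normalized log2 intensities, and a probe counts as detected on an array where the deposited detection p is under 0.05, which held for 45.1% to 48.2% of probes per array. Where 4 values of a group follow each other, they are the first and second array of sample 1 and then of sample 2. The median raw intensity per array lay between 103.4 and 123.3. The 2 arrays of an shSCR sample differed by a root mean square of 0.256 to 0.277 log2 units over the tested probes. The 2 arrays of an shUHRF1 sample differed by 0.449 to 0.487, and arrays of different shUHRF1 samples differed by 0.425 to 0.609. The array pairs of the shUHRF1 samples, which the design text calls duplicates, were thus as far apart as separate RNA samples of the series. The second arrays of both shUHRF1 samples deviated from their first arrays in part in the same genes, with r = 0.545 across 10880 probes, which share their normalization and are not independent. The cause was not tested, so the values of each tested gene are shown for every array, with its difference from first and second arrays apart.

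On probe ILMN_2517041 the targeted gene Uhrf1 was lower on all shUHRF1 arrays. It read 9.40 and 8.73 in sample 1 and 8.39 and 8.58 in sample 2, compared with 11.45 to 11.62 on those of shSCR. The log2 difference was -2.75 (SE 0.23, n = 2 RNA samples per group), with an adjusted p of 0.167 by limma. The other Uhrf1 probe, ILMN_2497581, was not tested. It read 4.82, 4.67, 4.63 and 4.35 in shSCR cells and 4.36, 4.42, 4.40 and 4.35 in shUHRF1 cells, with overlapping groups. Of 9 smooth muscle markers, Acta2, Tagln, Cald1 and Smtn were detected on all 8 arrays, while Myh11, Cnn1 and Myocd were detected on none. The 9 summed to raw intensities of 12557 to 22860 on shSCR arrays and 17957 to 31427 on shUHRF1 arrays. Macrophages and fibroblasts also make metalloproteinases. Of the leukocyte and macrophage genes, Cd14 was detected on all 8 arrays and Ptprc, Adgre1 and Itgam on none, and the 6 markers of those cells with a probe summed to raw intensities of 1000 to 1136 on shSCR arrays and 941 to 1125 on shUHRF1 arrays. The 6 fibroblast markers with a probe summed to 712 to 953 and 822 to 1708, with Pdgfra and Pi16 detected on all arrays and Dpp4 on none. The 7 endothelial markers summed to 1256 to 1308 and 1186 to 1587, with Egfl7 and Flt1 detected on all arrays and Cdh5 and Vwf on none. No background was subtracted from these sums, so each undetected probe adds background intensity to them. The median raw intensity over all probes of an array was 103.4 to 123.3. The part of the smooth muscle, fibroblast and endothelial signals in the results below was not tested. In a bulk RNA sample, a different share of a cell type and a different amount of RNA per cell cannot be told apart.

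All 8 genes of the group that could be tested had higher signal in shUHRF1 cells on average, and none passed the test. The collagenase gene Mmp13 and the stromelysin gene Mmp3 had the largest differences, 4.83-fold and 2.76-fold, and the gelatinase gene Mmp2 followed with 1.405-fold. Of the 17 probes, 12 probes for 8 genes passed the filter, which asked for detection on all 4 arrays of at least 1 group, and all 12 were detected on all 8 arrays. All 12 were higher in shUHRF1 cells, where 47.3% of all tested probes were. The median log2 difference over the 8 genes was 0.417, each gene taken by its tested probe of highest mean signal, against -0.013 over 7502 tested genes. By limma with Benjamini-Hochberg adjustment over 10880 probes, 0 of the 12 probes passed 0.05, with adjusted p between 0.287 and 0.683, and 0% of all probes passed. At an unadjusted p under 0.05, 5 of the 12 probes were higher, those of Mmp2, Mmp3 and 1 of Mmp13, beside 7.65% of all tested probes. Groups did not overlap for 2 of the 12, Mmp2 and Mmp14, which were higher on all 4 shUHRF1 arrays, beside 7.67% of all tested probes. With 2 RNA samples against 2, an exact two-sided permutation test cannot give a p below 0.333. Since the genes were chosen with earlier results of these data known, the shares of all probes are set beside them as description alone.

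**Figure D1:**
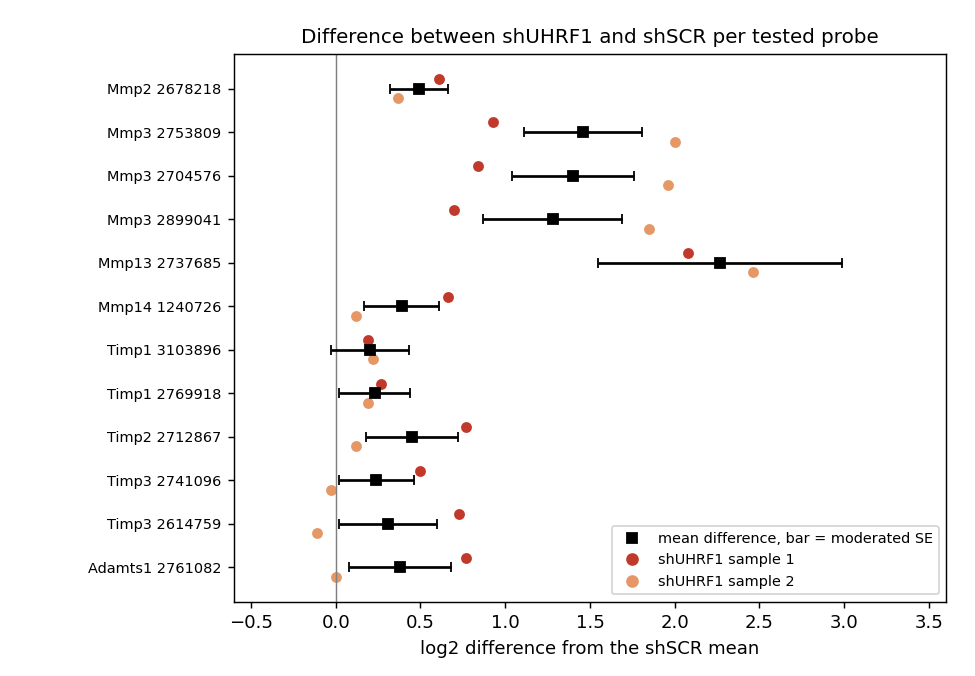
Log2 difference from the shSCR mean (x axis) for each of the 12 tested probes, with Illumina probe numbers without their prefix. Black squares are the mean of the shUHRF1 samples with the moderated SE from limma, and coloured points are the shUHRF1 samples, each the mean of 2 arrays. Mmp3 and Mmp13 lie between 1.28 and 2.27, and the other probes between 0.20 and 0.49.

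Stromelysins and collagenases come first, the inducible enzymes of the family. Mmp3, stromelysin 1, cleaves proteoglycans, fibronectin and several collagens and activates other metalloproteinase precursors. Its probe of highest mean signal, ILMN_2753809, read 7.30, 7.09, 7.55 and 7.32 in the shSCR samples, compared with 7.05 and 9.44 in shUHRF1 sample 1 and 9.51 and 9.11 in sample 2. Thus 3 of the 4 shUHRF1 arrays stood well above all shSCR arrays, and the first array of shUHRF1 sample 1 lay below all of them. The raw intensities of that probe were 245.2, 241.5, 236.6 and 236.8 in shSCR cells and 234.1, 744.9, 805.6 and 728.6 in shUHRF1 cells, so the split was present before normalization. The log2 difference was 1.46 (SE 0.35, n = 2 RNA samples per group, 2.76-fold), with an adjusted p of 0.287 by limma.

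The other Mmp3 probes showed the same split among the arrays. ILMN_2704576 read 6.97, 7.01, 6.71 and 6.80 in shSCR cells and 6.55, 8.87, 8.98 and 8.68 in shUHRF1 cells, a difference of 1.40 (SE 0.36, adjusted p = 0.287 by limma). ILMN_2899041 read 6.59, 6.13, 6.92 and 7.17 against 5.98, 8.83, 8.47 and 8.64, a difference of 1.28 (SE 0.41, adjusted p = 0.295 by limma). On all 3 probes the first array of shUHRF1 sample 1 was the lowest of the 8. Between the arrays of shUHRF1 sample 1 the second was 5.24-fold, 4.98-fold and 7.22-fold above the first, while in sample 2 the ratio was 0.76, 0.81 and 1.13. That first array also had the highest signal of the shUHRF1 arrays on the tested Uhrf1 probe, 9.40. Whether the Uhrf1 level bears on the Mmp3 reading was not tested. The difference on ILMN_2753809, 1.46, was 2.06 without that array, 0.87 without the second array of the same sample, and 0.93 without shUHRF1 sample 2. It was 0.85 from the first arrays alone and 2.07 from the second arrays alone, and on the other probes 0.93 and 1.87, and 0.47 and 2.09.

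Mmp13, collagenase 3, cleaves fibrillar collagens and is the main interstitial collagenase of the mouse. ILMN_2737685 read 5.39 and 5.33 in shSCR sample 1, 7.86 and 7.73 in shSCR sample 2, 6.94 and 10.39 in shUHRF1 sample 1, and 8.63 and 9.45 in shUHRF1 sample 2. The groups overlapped, since the first array of shUHRF1 sample 1 lay between the 2 controls. Its difference was the largest of the group at 2.27 (SE 0.72, n = 2 RNA samples per group, 4.83-fold), with an adjusted p of 0.294 by limma. The controls themselves differed 5.42-fold, which is more than the difference between the groups. Leaving out shSCR sample 1 gave a log2 difference of 1.05, and leaving out shSCR sample 2 gave 3.49. The first arrays alone gave 1.15 and the second arrays alone 3.39. In shUHRF1 sample 1 the second array was 10.96-fold above the first, and in sample 2 the ratio was 1.77.

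The further Mmp13 probes sat near background. ILMN_2799267 was detected on 2 shSCR and 3 shUHRF1 arrays, and read 4.90, 4.68, 5.10 and 4.41 against 4.97, 4.60, 4.88 and 4.88. ILMN_1249336 was detected on 0 shSCR arrays and on 2 shUHRF1 arrays, the second of each sample, with readings of 4.54, 4.46, 4.45 and 4.65 against 4.72, 5.88, 4.65 and 4.84. Set against the dimmest detected signal of each shSCR array, the mean shUHRF1 reading was 1.13-fold higher, with no test. That mean takes the undetected first-array readings as they stand, so the value is not a strict lower bound. It rests on the second array of shUHRF1 sample 1, since the other 3 shUHRF1 readings lie below the dim level of 4.85. The 4.83-fold value for Mmp13 rests on ILMN_2737685, and probes this near background can neither repeat nor contradict its size.

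Mmp10, stromelysin 2, is a close relative of Mmp3 and has 1 probe, ILMN_2619952, which did not pass the filter. It read 4.40, 4.29, 4.49 and 4.78 in the shSCR samples, compared with 4.49 and 6.28 in shUHRF1 sample 1 and 4.28 and 5.75 in sample 2. It was detected on the second array of each shUHRF1 sample and on none of the other 6 arrays. The deposited detection p was 0 and 0.00125 on those second arrays and between 0.0614 and 0.871 elsewhere. Set against the dimmest detected signal of each shSCR array, the mean shUHRF1 reading was 1.27-fold higher, with no test. That mean takes the undetected first-array readings as they stand, so the value is not a strict lower bound. The log2 difference was -0.06 from the first arrays alone and 1.48 from the second arrays alone. The second array exceeded the first 3.46-fold in shUHRF1 sample 1 and 2.77-fold in sample 2. The first arrays of the shUHRF1 samples lay within the range of the controls or just below it, so the 1.27-fold value rests on the second arrays.

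**Figure D2:**
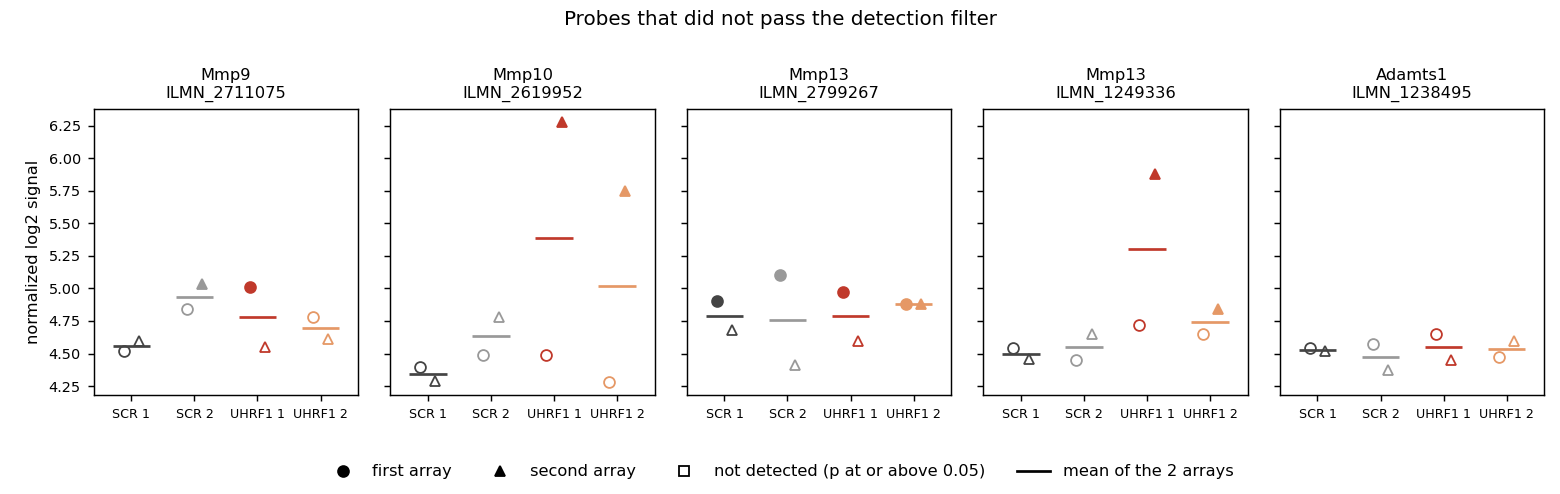
Normalized log2 signal (y axis) on every array for the 5 probes that did not pass the filter, with circles for first arrays, triangles for second arrays, open symbols where the probe was not detected, and lines for the mean of 2 arrays. SCR and UHRF1 on the x axis stand for shSCR and shUHRF1 samples. Mmp10 reached 6.28 and 5.75 on the second shUHRF1 arrays and was not detected on the other 6.

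The gelatinases Mmp2 and Mmp9 cleave denatured collagen and basement membrane collagen, and Mmp14 is the membrane-anchored enzyme that activates the Mmp2 precursor. The Mmp2 probe ILMN_2678218 read 11.48, 11.44, 11.54 and 11.38 in shSCR cells and 12.23, 11.91, 11.96 and 11.70 in shUHRF1 cells. All shUHRF1 arrays were above all shSCR arrays, and the shSCR arrays spanned a narrow range. The difference was 0.49 (SE 0.17, n = 2 RNA samples per group, 1.405-fold), with an adjusted p of 0.312 by limma. From the first arrays alone the difference was 0.58, and from the second arrays alone 0.40. Both shUHRF1 samples contributed, with 0.61 above the shSCR mean in sample 1 and 0.37 in sample 2. For Mmp2 the first array of each shUHRF1 sample was the higher one, whereas for Mmp13 and Timp1 it was the lower one. Over 25 alternative settings the Mmp2 difference stayed between 0.37 and 0.61. The lowest adjusted p by limma, 0.0594, came from array weights over 8 arrays, a fit that takes duplicate arrays for samples.

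Mmp14, on probe ILMN_1240726, read 12.73, 12.59, 12.74 and 12.72 in the shSCR samples, compared with 13.34 and 13.36 in shUHRF1 sample 1 and 12.75 and 12.87 in sample 2. The groups did not overlap, but shUHRF1 sample 2 cleared the highest control by a narrow margin. The difference was 0.39 (SE 0.22, 1.31-fold), with an adjusted p of 0.433 by limma. It was 0.66 in sample 1 and 0.12 in sample 2, and 0.31 from the first and 0.46 from the second arrays alone. With median scaling in place of quantile normalization the Mmp14 groups overlapped. The arrays of a sample lay close together here, with ratios of 1.02 and 1.08 between second and first arrays of the shUHRF1 samples.

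Mmp9, on probe ILMN_2711075, was detected on 1 array of each group and was not tested. It read 4.52, 4.60, 4.84 and 5.03 in shSCR cells and 5.01, 4.55, 4.78 and 4.61 in shUHRF1 cells. The groups overlapped throughout, and a level could not be measured at the background of these arrays.

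**Figure D3:**
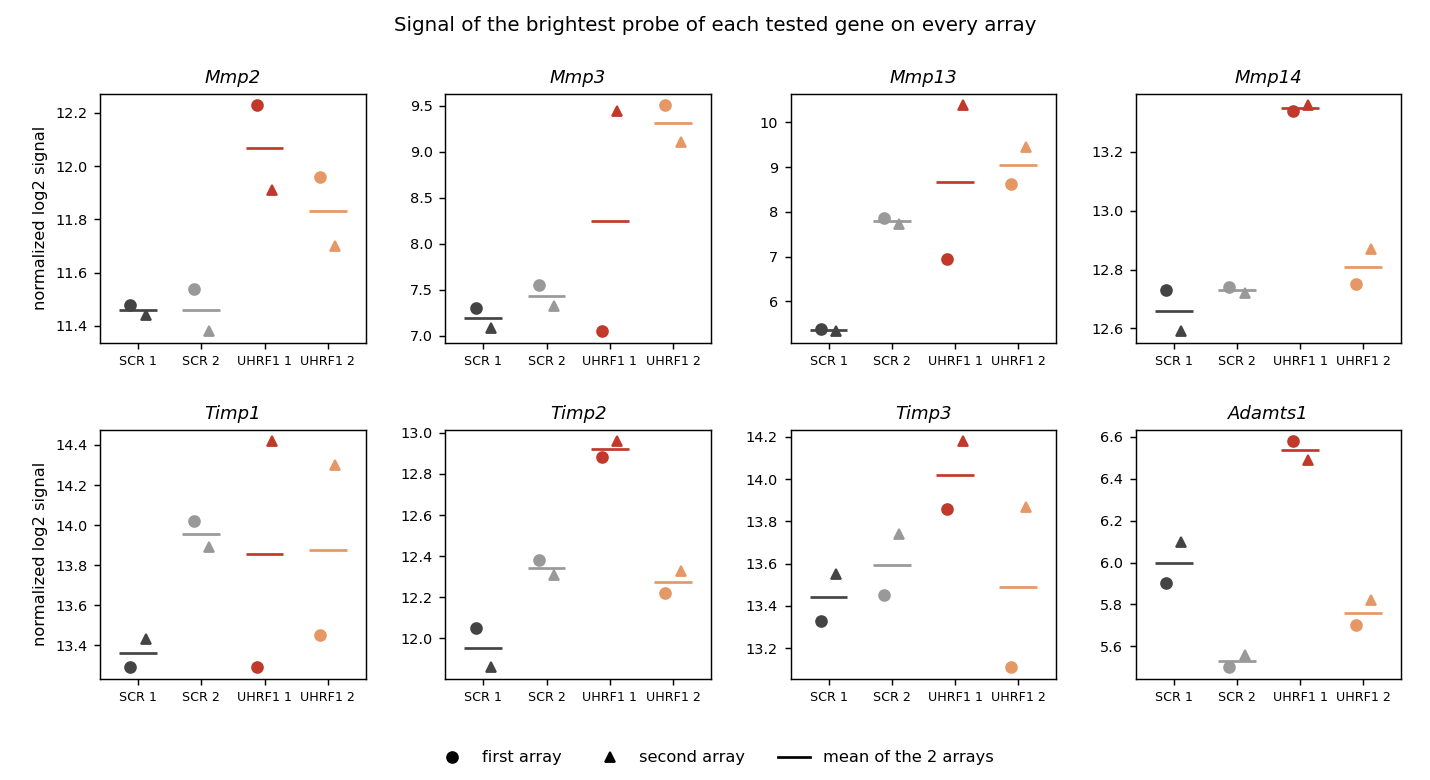
Normalized log2 signal (y axis, a separate range in each panel) of the tested probe with the highest mean signal of each gene, with circles for first arrays, triangles for second arrays and lines for the mean of 2 arrays. SCR and UHRF1 on the x axis stand for shSCR and shUHRF1 samples. All shUHRF1 arrays lie above all shSCR arrays for Mmp2 and Mmp14, and 3 of 4 do so for Mmp3.

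Among the inhibitors, Timp2 has a special part, since it binds both Mmp14 and the Mmp2 precursor and so helps in the activation of Mmp2 at the cell surface. Its probe ILMN_2712867 read 12.05, 11.86, 12.38 and 12.31 in the shSCR samples, compared with 12.88 and 12.96 in shUHRF1 sample 1 and 12.22 and 12.33 in sample 2. The arrays of shUHRF1 sample 1 stood above all controls, and those of sample 2 lay among the controls. The difference was 0.45 (SE 0.27, n = 2 RNA samples per group, 1.365-fold), with an adjusted p of 0.448 by limma. It was 0.77 in sample 1 and 0.12 in sample 2, and 0.33 from the first and 0.56 from the second arrays alone. Across the 8 arrays the centred profile of Timp2 differed from that of Mmp14 by a root mean square of 0.124 log2 units, the smallest distance among the 28 pairs of the 8 genes. Genes outside the group lay nearer to each, such as Pomgnt2 at 0.059 from Timp2 and Cux1 at 0.065 from Mmp14.

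Timp1 is a secreted inhibitor of most soluble metalloproteinases. ILMN_3103896 read 13.29, 13.43, 14.02 and 13.89 in the shSCR samples, compared with 13.29 and 14.42 in shUHRF1 sample 1 and 13.45 and 14.30 in sample 2. The second shUHRF1 arrays were above all other arrays, and the first ones were at the level of shSCR sample 1. The difference was 0.20 (SE 0.23, 1.15-fold), with an adjusted p of 0.683 by limma. ILMN_2769918 gave the same picture, with 13.32, 13.32, 13.75 and 13.79 against 13.28, 14.35, 13.27 and 14.20 and a difference of 0.23 (SE 0.21, adjusted p = 0.602 by limma). Second over first arrays came to 2.19-fold and 1.81-fold on the former probe and 2.11-fold and 1.90-fold on the latter. From the first arrays alone the direction turned, to -0.29 and -0.26, and from the second arrays alone the differences were 0.70 and 0.72. Without shSCR sample 1 the difference of ILMN_3103896 was -0.09.

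Timp3 binds to the matrix and also inhibits Adamts and Adam proteases. ILMN_2741096 read 13.33, 13.55, 13.45 and 13.74 in the shSCR samples, compared with 13.86 and 14.18 in shUHRF1 sample 1 and 13.11 and 13.87 in sample 2. Both arrays of sample 1 were above all controls, while the first array of sample 2 was the lowest of all 8. The difference was 0.24 (SE 0.22, 1.18-fold), with an adjusted p of 0.622 by limma, and it was 0.50 in sample 1 and -0.03 in sample 2. First and second arrays alone gave 0.09 and 0.38. ILMN_2614759 read 9.86, 10.32, 10.19 and 10.47 against 10.23, 11.65, 9.42 and 10.78, with a difference of 0.31 (SE 0.29, adjusted p = 0.625 by limma). On that probe the second array was 2.67-fold above the first in shUHRF1 sample 1 and 2.57-fold in sample 2. Its difference was -0.11 without shUHRF1 sample 1 and -0.20 from the first arrays alone, against 0.82 from the second.

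Adamts1 is a secreted protease with thrombospondin repeats that cleaves versican and other proteoglycans. ILMN_2761082 read 5.90, 6.10, 5.50 and 5.56 in the shSCR samples, compared with 6.58 and 6.49 in shUHRF1 sample 1 and 5.70 and 5.82 in sample 2. Sample 1 was above all controls and sample 2 lay between the 2 controls. The difference was 0.38 (SE 0.30, 1.30-fold), with an adjusted p of 0.561 by limma, and it was -0.004 without shUHRF1 sample 1. From the first arrays alone it was 0.44, and from the second arrays alone 0.33. ILMN_1238495 was detected on 0 of 8 arrays and gives no fold.

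The 8 genes fell into kinds by which arrays were high. Mmp2 was above the controls on all shUHRF1 arrays, and Mmp14, Timp2 and Adamts1 were high mainly in shUHRF1 sample 1, on both its arrays. Timp1 and the dimmer Timp3 probe were high on the second arrays of both samples. Mmp3 was high on 3 arrays, and Mmp13 was highest on the second arrays. From the first arrays alone, 2 of the 12 probes had both shUHRF1 arrays above both shSCR arrays, beside 24.9% of all tested probes, and 1 Timp1 probe had them below, beside 28.6% of all tested probes. From the second arrays alone 11 of the 12 probes had them above, the exception being Adamts1, beside 20.5% of all tested probes. With shUHRF1 sample 1 alone, both arrays were above all 4 shSCR arrays for 5 of the 12 probes, beside 19% of all tested probes, namely those of Mmp2, Mmp14, Timp2 and Adamts1 and 1 of Timp3. With sample 2 alone it was 6 of the 12, beside 12.8%, namely Mmp2, Mmp14, Mmp13 and the 3 of Mmp3. Mmp2 and Mmp14 were counted in both samples, as were 7.67% of all tested probes. Mmp14 in sample 2 was counted by a narrow margin, and its groups overlapped with median scaling.

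In shUHRF1 sample 1 the 2 arrays were further apart for Mmp3, Mmp13 and Timp1 than over the whole table. The root mean square of second minus first array over the 8 genes was 0.167 and 0.161 log2 units in the shSCR samples, 1.547 in shUHRF1 sample 1 and 0.532 in sample 2. Over all 7502 tested genes it was 0.247, 0.267, 0.492 and 0.458. In shUHRF1 sample 1 the second arrays of Mmp3, Mmp13 and Timp1 were higher by 2.39, 3.45 and 1.13, the largest values among the 8 genes. On the same measure Mmp2, Mmp14, Timp2, Timp3 and Adamts1 stood at -0.32, 0.02, 0.08, 0.32 and -0.09, each smaller in size than 0.492. These values are for the probe of highest mean signal, and the dimmer Timp3 probe stood at 1.42. The median over the 8 genes of the signal minus the shSCR mean was 0.50 and 0.74 on the arrays of shUHRF1 sample 1 and 0.06 and 0.30 on those of sample 2, against -0.17 to 0.15 on the shSCR arrays. The first array of sample 2 thus lay within the range of the controls on this measure.

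**Figure D4:**
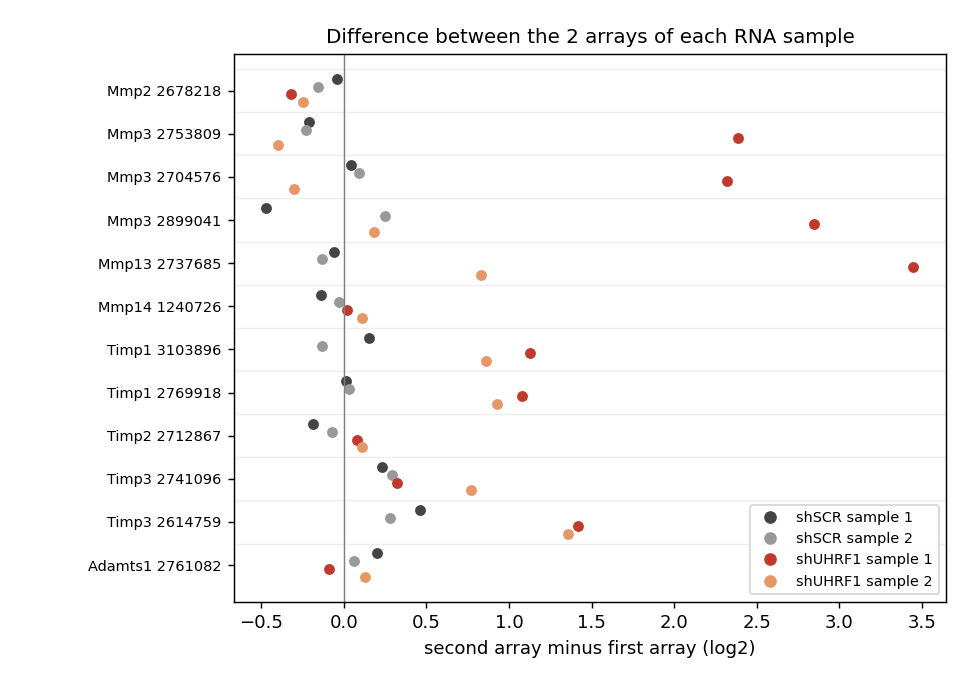
Second minus first array of each RNA sample (x axis, log2) for the 12 tested probes, with grey points for shSCR and coloured points for shUHRF1 samples, and Illumina probe numbers without their prefix. shSCR points lie between -0.47 and 0.46, while shUHRF1 sample 1 reaches 3.45 for Mmp13 and 2.85 for an Mmp3 probe.

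Beyond these genes, most of the remaining enzymes of the family could not be tested. Of 17 other matrix metalloproteinase genes, 14 had a probe and 6 were tested, and 0 passed limma's adjusted threshold. At an unadjusted p under 0.05 by limma, 2 of them were above shSCR, beside 7.65% of all tested probes. All 6 were higher, beside 47.3% of all tested probes, though the smallest difference was 0.02. Their median difference of 0.13 ranged from 0.02 to 0.52 over 25 alternatives. Mmp11, stromelysin 3, which is made by stromal cells around tumours, read 5.70, 6.43, 6.31 and 6.58 in shSCR cells and 7.71, 8.15, 6.94 and 7.22 in shUHRF1 cells. The groups did not overlap, and the difference was 1.25 (SE 0.31, adjusted p = 0.287 by limma). Mmp23 read 6.95, 6.98, 6.91 and 7.22 against 7.51, 7.41, 8.47 and 8.13, also without overlap, with a difference of 0.86 (SE 0.29). The third in size was Mmp1a, the mouse counterpart of interstitial collagenase, whose groups overlapped at 0.18 (SE 0.17). Of 18 other Adamts genes, 13 had a probe and only Adamts5, an aggrecan-cleaving protease, was tested. Its difference was -0.26 (SE 0.16), with overlapping groups.

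A list of activators and inhibitors of the metalloproteinases, which also holds Adam protease genes such as Adam15 and Adam9, was mixed. Of its 15 genes, 12 had a probe and 8 were tested, most of them Adam genes. Of these, 6 were higher, beside 47.3% of all tested probes, and 2 were lower, with a median of 0.12. By limma 0 passed the adjusted threshold, and 2 lay above shSCR at an unadjusted p under 0.05, beside 7.65% of all tested probes. Adam15, a membrane disintegrin and metalloproteinase, read 8.34, 8.01, 8.07 and 8.05 in shSCR cells and 9.47, 9.33, 9.23 and 8.90 in shUHRF1 cells. It was higher on every shUHRF1 array, by 1.12 (SE 0.19, adjusted p = 0.287 by limma). Reck, a membrane-anchored inhibitor of Mmp2, Mmp9 and Mmp14, read 5.77, 5.76, 5.60 and 5.38 against 7.06, 6.65, 6.21 and 6.02. Its arrays did not overlap either, and the difference was 0.86 (SE 0.27, adjusted p = 0.294 by limma). Adam9 differed by 0.30 (SE 0.24) with overlapping groups. For both Mmp11 and Reck, shUHRF1 sample 1 was further from the controls than sample 2.

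Plasmin is a further activator of metalloproteinase precursors, and none of the tested genes of its pathway passed the test. Of 11 genes of plasminogen activation 9 had a probe and 5 were tested. Of these, 1 was higher and 4 were lower, where 47.3% of all tested probes were higher. Among the lower ones, the annexin gene Anxa2 stood at 14.24 in shSCR and 14.23 in shUHRF1 cells. The median was -0.23, and it was 0.09 without shUHRF1 sample 2. By limma 0 passed the adjusted threshold and 0 passed an unadjusted p of 0.05. Of all 10880 tested probes, 832 were higher and 744 lower at that unadjusted p. Plau, the urokinase gene, read 8.32, 8.25, 8.52 and 8.74 in shSCR cells and 8.02, 8.16, 7.82 and 8.47 in shUHRF1 cells, a difference of -0.34 (SE 0.19). The urokinase receptor gene Plaur read 8.23, 8.10, 8.72 and 8.89 against 7.79, 9.39, 7.43 and 8.37, a difference of -0.24 (SE 0.31). Lrp1, which clears protease and inhibitor complexes from the cell surface, differed by 0.25 (SE 0.36). The groups overlapped for all 3, and Plaur was highest of all 8 arrays on the second array of shUHRF1 sample 1.

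Among 7502 tested genes, those whose centred profile over the 8 arrays lay nearest to each member were found by root mean square distance. Nearest to Mmp3 were Tpd52l1 at 0.535, Rbpms at 0.589 and Stbd1 at 0.597 log2 units, with differences of 1.17, 0.88 and 0.76. For Mmp13 the nearest were Avpr1a, a vasopressin receptor gene, at 0.769, Tnc, which encodes the matrix protein tenascin C, at 0.837, and Parm1 at 0.94. Over the 8 arrays Mmp3 itself had an SD of 1.1 and Mmp13 of 1.8, so no gene followed either closely. Timp1 was followed by Nid1, which encodes the basement membrane protein nidogen 1, at 0.105, by Grk5 at 0.106 and by the glypican gene Gpc1 at 0.127. Timp3 had the vinculin gene Vcl at 0.097, the tropomodulin gene Tmod3 at 0.106 and Chp1 at 0.113. The nearest genes were Arfgap1, Ankle2 and Camk2a for Mmp2, at 0.054 to 0.065, and Cux1, Trappc2l and Nfkbil1 for Mmp14, at 0.065 to 0.076. They were Pomgnt2, Pla2g15 and Tbc1d2 for Timp2, at 0.059 to 0.1, and Pcmtd1, Slc2a8 and Tmem63b for Adamts1, at 0.111 to 0.13. These distances describe 8 arrays of 4 RNA samples and carry no test.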

How the data were processed

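Bead-array signals of 8 arrays, 4 RNA samples read on 2 arrays each, were analysed. Probe signals were deposited as linear intensities, per the file headers, and GenomeStudio 2011.1 and lumi are named in the submitters' processing notes. The deposited table also gives a detection p-value per probe and array, per the file headers. A further deposited table holds processed values on a log2-like scale, with a median of 7.86 in all 8 columns, and served as an alternative. Its log base and transform are unknown, and all 12 tested member probes had the same sign in it. The genome build of the probes was not given in the sources used here. Of 25671 probes 2 with missing or out-of-range entries were left out, and 1719 of the rest had no gene symbol in the platform annotation.

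With neqc of limma 3.58.1 in R 4.3.3, signals received a normexp background correction (detection p-values, offset 16), quantile normalization and a log2 transform. After averaging the arrays of each RNA sample, lmFit and eBayes compared the groups, 2 samples against 2, without a block. Benjamini-Hochberg adjustment ran over the 10880 probes that every array of shSCR, of shUHRF1 or of both detected at p under 0.05. Differences are shUHRF1 minus shSCR with the moderated standard error (SE). Probes that did not pass are shown as values. The number of RNA samples, 2 per group, limits the precision. RNA samples of the same number did not deviate together (r = -0.15), so numbers were not taken as pairs.

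The text names every probe of the 10 genes, the 3 genes of largest absolute difference in each of 4 pathway lists, Uhrf1, and the 3 genes of nearest profile to each tested member. The members and lists were chosen with earlier results of these data known. 20 alternatives were planned and 6 were added after the data were seen. Figures were drawn with matplotlib 3.10.9.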

Additional observations from a re-analysis of the deposited data

How the results depend on the processing

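No probe of the 10 genes passed limma's adjusted threshold under any of 25 alternatives. Over all tested probes the count past it, 0 with averaged arrays, was 1 from the second arrays alone, 1 with a variance trend, 3 with a random block for the RNA sample, 330 with the 8 arrays as separate samples and 410 with array weights. With the RNA sample number as a replicate block it was 1, with the array number as a replicate block over 8 arrays 336, and with the numbers crossed as a replicate block, chosen after seeing the data, 2. The fits that treat arrays as samples take duplicates for replicates. Groups did not overlap, in either direction, for 2 of the 12 probes beside 16.2% of all tested probes. This was 1 with median scaling (13.8%), 11 from the second arrays alone (43.6%) and 6 without the first array of shUHRF1 sample 1 (19.1%). When an RNA sample was left out it ranged from 3 without shSCR sample 1 (33.2%) to 6 without shUHRF1 sample 1 (28.4%), with 4 without shSCR sample 2 (30.1%) and 5 without shUHRF1 sample 2 (39.7%). Fewer arrays make overlap rarer. The median over genes, 0.417, ranged from 0.170 without shUHRF1 sample 1 to 0.712 without shUHRF1 sample 2.

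Directions turned for Timp1, Timp3 and Adamts1 alone. From the first arrays alone ILMN_3103896 stood at -0.289, ILMN_2769918 at -0.261 and ILMN_2614759 at -0.202. Without the second array of shUHRF1 sample 1 they were -0.078, -0.038 and -0.046, and without that of sample 2 -0.010, -0.001 and -0.033. When an RNA sample was left out, ILMN_3103896 ranged from -0.094 to 0.504, ILMN_2614759 from -0.111 to 0.728, ILMN_2741096 from -0.027 to 0.502 and Adamts1 from -0.004 to 0.768. The cause was not tested. Mmp2, Mmp3, Mmp13, Mmp14 and Timp2 were higher in all 25 alternatives, with Mmp3 (ILMN_2753809) between 0.80 and 2.07 and Mmp13 between 1.02 and 3.49, each lowest in the authors' processed values.

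The limits are 2 RNA samples per group, array pairs of shUHRF1 samples that differ as much as separate samples, and hairpins that are not named.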
